A study of Mus musculus with 8 samples.

Results

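The genes described here encode 8 receptors of natural killer (NK) cells and of T cells that carry NK receptors: Klrk1, Klrc1, Klrc2, Klrd1, Klrg1, Klrb1c, Klre1 and Ncr1. They were chosen by name from the 33696 genes of the feature table, and all 8 were found. Their levels in leukocytes of mouse liver metastases, by cell gate, by genotype and with or without a T cell receptor contig, were the readout that the choice named, so the order of the gates is given as a description with no test. The family name under which they were grouped, NKG2 and activating NK lectin receptors, does not cover them all. The product of Ncr1 is an immunoglobulin-like receptor and not a lectin, and the products of Klrc1 and Klrg1 are inhibitory.

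NK cells read a balance of activating and inhibitory receptors. Klrd1 encodes CD94, which pairs with NKG2A (Klrc1), an inhibitory chain, or with NKG2C (Klrc2), an activating chain, and both pairs bind the non-classical MHC molecule Qa-1, encoded by H2-T23. Klrk1 encodes NKG2D, an activating receptor for stress-induced ligands of the Rae-1, H60 and Mult1 families, which signals through the adaptors DAP10 (Hcst) and DAP12 (Tyrobp). Klrb1c encodes NK1.1, Ncr1 encodes NKp46, Klre1 encodes a lectin-like chain that pairs with the Klri1 and Klri2 products, and Klrg1 encodes an inhibitory receptor for cadherins. In liver and in tumours, Klrc1 and Klrk1 are also known from antigen-experienced CD8 T cells and Klrg1 from effector T cells, mature NK cells and regulatory T cells.

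Live CD45+ cells had been sorted from liver metastatic tumours of 2 Vav1CreTet2KO mice (knockout mice 1 and 2) and 2 Tet2fl/fl mice (control mice 1 and 2), 30 days after Venus-AKTPM/LOH colorectal cancer cells were injected into the spleen. The series asks how loss of Tet2, which encodes an enzyme that oxidises methylated cytosine in DNA, changes these leukocytes. Vav1-Cre acts across the blood lineages, so T, NK, B and myeloid cells had all been exposed to it, and all 4 mice carried the same cancer cells. Each mouse gave a 5' gene expression library and a T cell receptor library, and 10000 cells were targeted in each. Strain, age and sex were not in the labels used here.

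After filtering, 46735 cells remained, between 10519 and 13145 per mouse, with 57190926 to 91789597 unique molecular identifiers (UMIs, counted molecules) per library. Between 579 and 622 barcodes of each library also occurred in another library. The leukocyte make-up differed by genotype: B-like cells were 41.9 and 44.3% of the knockout libraries and 5.82 and 4.73% of the control libraries, while monocyte/macrophage-like cells were 8.25 and 10.7% against 54.5 and 60.1%. T and NK-like clusters held 32.3, 31.2, 17.6 and 14.9% of the cells in knockout mouse 1, knockout mouse 2, control mouse 1 and control mouse 2, in that order. All series of 4 values below follow that order. Tet2 itself was at 22.4, 21.1, 27.3 and 25.4 CPM (a gene's UMIs per 1000000 UMIs of the summed cells) in the NK gate (edgeR adjusted p = 0.504) and at 39.4, 43.1, 69.1 and 74.0 in monocyte/macrophage-like cells, where it fell by 0.79 on the log2 scale (SE 0.11, edgeR adjusted p = 0.00584). The labels do not say which exons were deleted, and reads from the 5' end may lie outside them, so these values check the labels only weakly.

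Cells were gated without the 8 genes. CD8 T cells (3571) had a productive T cell receptor beta (TRB) contig, a UMI of Cd8a or Cd8b1 and none of Cd4, and CD4 T cells (1281) the converse. T cells without CD4 or CD8 (1729) had the contig and no UMI of any of the 3 genes. T cells without a contig (1640) had CD3 UMIs and no receptor contig. The NK gate (2131 cells: 533, 589, 675 and 334 by mouse) had no contig, no UMI of Cd3d, Cd3e or Cd3g, and UMIs of at least 2 of 9 NK genes such as Nkg7, Tyrobp and Il2rb. A list of 15 NK markers, none of them among the 8 receptors, summed to between 14770 and 20690 CPM in the NK gate and to between 2966 and 6000 in CD8 T cells. The 15 T cell markers summed to between 258 and 373 in the NK gate, with 4 or 5 of them at 0, and to between 5607 and 6758 in CD8 T cells. All of the 9 NK genes of the gate but Tyrobp are on the NK list. Cd3d, Cd3e and Cd3g, which had to be at 0 in the NK gate, are on the T cell list, as are Cd8a and Cd8b1. The sums are thus partly set by the gates and are no independent check of them.

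In the mouse genome (GRCm39) 7 of the 8 genes lie on chromosome 6. Klre1 (129554868 to 129562791, plus strand), Klrd1 (129568677 to 129575738, plus), Klrk1 (129587286 to 129600827, minus), Klrc2 (129624459 to 129637652, minus) and Klrc1 (129642978 to 129655936, minus) are neighbours, Klrb1c lies at 128755448 to 128766178 (minus) and Klrg1 at 122246981 to 122259914 (minus). Ncr1 is on chromosome 7, at 4340710 to 4348171 (plus). Klrc1 and Klrc2 share sequence: 40.3% of the 50-base stretches of the longest Klrc1 transcript and 30.4% of those of Klrc2 occur in other genes, and 15 and 49.8% of those in the first 500 bases, where a 5' assay reads. Counts of Klrc2 in particular may therefore lack reads that fit both genes. Klrb1c shares 18.5% of its stretches, most with the gene model Gm44511, and the other 5 genes share none.

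Promoter sequences of 3 of the genes are shown because the levels below separate them: Klrk1 and Klrc1, which were found in T cells as well as in NK cells, and Ncr1, which was low in CD8 T cells. Each runs from 250 bases before to 50 bases after a RefSeq start (table of GRCm38.p6, placed on GRCm39 by exact match), 5′ to 3′ on the gene's strand. Capitals mark the RUNX letters TGTGGT (or ACCACA on the other strand) and the T-box letters GTGTGA (or TCACAC).
Klrk1, chr6:129600778-129601077, minus strand: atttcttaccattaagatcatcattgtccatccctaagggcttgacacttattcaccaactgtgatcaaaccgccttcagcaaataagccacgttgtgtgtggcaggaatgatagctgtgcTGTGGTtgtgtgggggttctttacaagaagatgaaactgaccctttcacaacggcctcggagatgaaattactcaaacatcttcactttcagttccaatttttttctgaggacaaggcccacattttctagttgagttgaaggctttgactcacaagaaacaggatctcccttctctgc
Klrc1, chr6:129655887-129656186, minus strand: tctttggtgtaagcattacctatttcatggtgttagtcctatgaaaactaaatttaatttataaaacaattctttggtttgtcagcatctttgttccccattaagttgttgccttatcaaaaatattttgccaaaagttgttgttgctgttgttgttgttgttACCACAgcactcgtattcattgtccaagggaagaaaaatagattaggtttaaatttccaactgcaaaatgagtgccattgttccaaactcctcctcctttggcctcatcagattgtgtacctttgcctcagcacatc
Ncr1, chr7:4340464-4340763, plus strand: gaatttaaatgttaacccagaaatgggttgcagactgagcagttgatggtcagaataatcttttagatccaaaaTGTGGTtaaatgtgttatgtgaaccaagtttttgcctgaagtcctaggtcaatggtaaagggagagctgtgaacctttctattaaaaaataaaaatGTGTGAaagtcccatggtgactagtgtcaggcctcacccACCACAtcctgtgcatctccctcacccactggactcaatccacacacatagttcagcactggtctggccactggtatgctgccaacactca
The RUNX letters begin at position -129 in Klrk1, at -87 in Klrc1 and at -176 and -41 in Ncr1, counted from the start site, and the T-box letters at -80 in Ncr1. Among 32851 promoters of the same length, 16.8% held the RUNX letters and 14.5% the T-box letters. No RUNX match overlapped a T-box match. Of the genes not shown, Klrb1c, which was also low in CD8 T cells, had no T-box match, and nor did Klrc2. Klre1 had 1 T-box match in each of its promoters, at 31 and -42. The promoters hold few CG pairs, the sequence whose methylation Tet2 products act on: 4 in Klrk1, 1 in Klrc1 and 0 in Ncr1, where the median of all promoters was 7 and 31.4% held at most 3. Methylation was not measured here, and the letters are a description, not sites of binding. The table held no promoter of Klrd1 or Klrg1.

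The NK gate held the highest levels of the NKG2 receptors. Klrk1 was at 622, 541, 502 and 492 CPM there, with a UMI in 87.8, 86.8, 84.6 and 79.6% of cells. Klrd1 was at 626, 573, 515 and 515, and Klrc1 at 676, 622, 388 and 280.1. Klrc2 was at 160, 138, 138 and 106. CPM values depend on a gene's own capture, so levels of different genes are not compared.

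Of the 8 genes, Ncr1 and Klrb1c were furthest below their NK gate level in CD8 T cells, in each mouse. In the NK gate Ncr1 was at 808, 752, 749 and 618 CPM, Klrb1c at 628, 622, 645 and 556 and Klre1 at 614, 528, 659 and 435. In CD8 T cells Ncr1 was at 2.02, 2.38, 1.72 and 0.83% of its NK gate level and Klrb1c at between 1.9 and 4.2%. Klre1 was at 14.0, 14.9, 9.58 and 4.34%, Klrk1 at 28.0, 31.1, 12.9 and 5.23% and Klrc1 at 52.7, 62.3, 31.6 and 49.1%. Klrd1 in CD8 T cells was at 52.5, 49.95, 39.3 and 44.0% of the NK gate level. All 8 genes were higher in the NK gate than in CD8 T cells in each of the 4 mice. This was also so for shares of cells with a UMI, unthinned and after each cell was thinned to 1000 or 2000 UMIs.

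**Figure D1:**
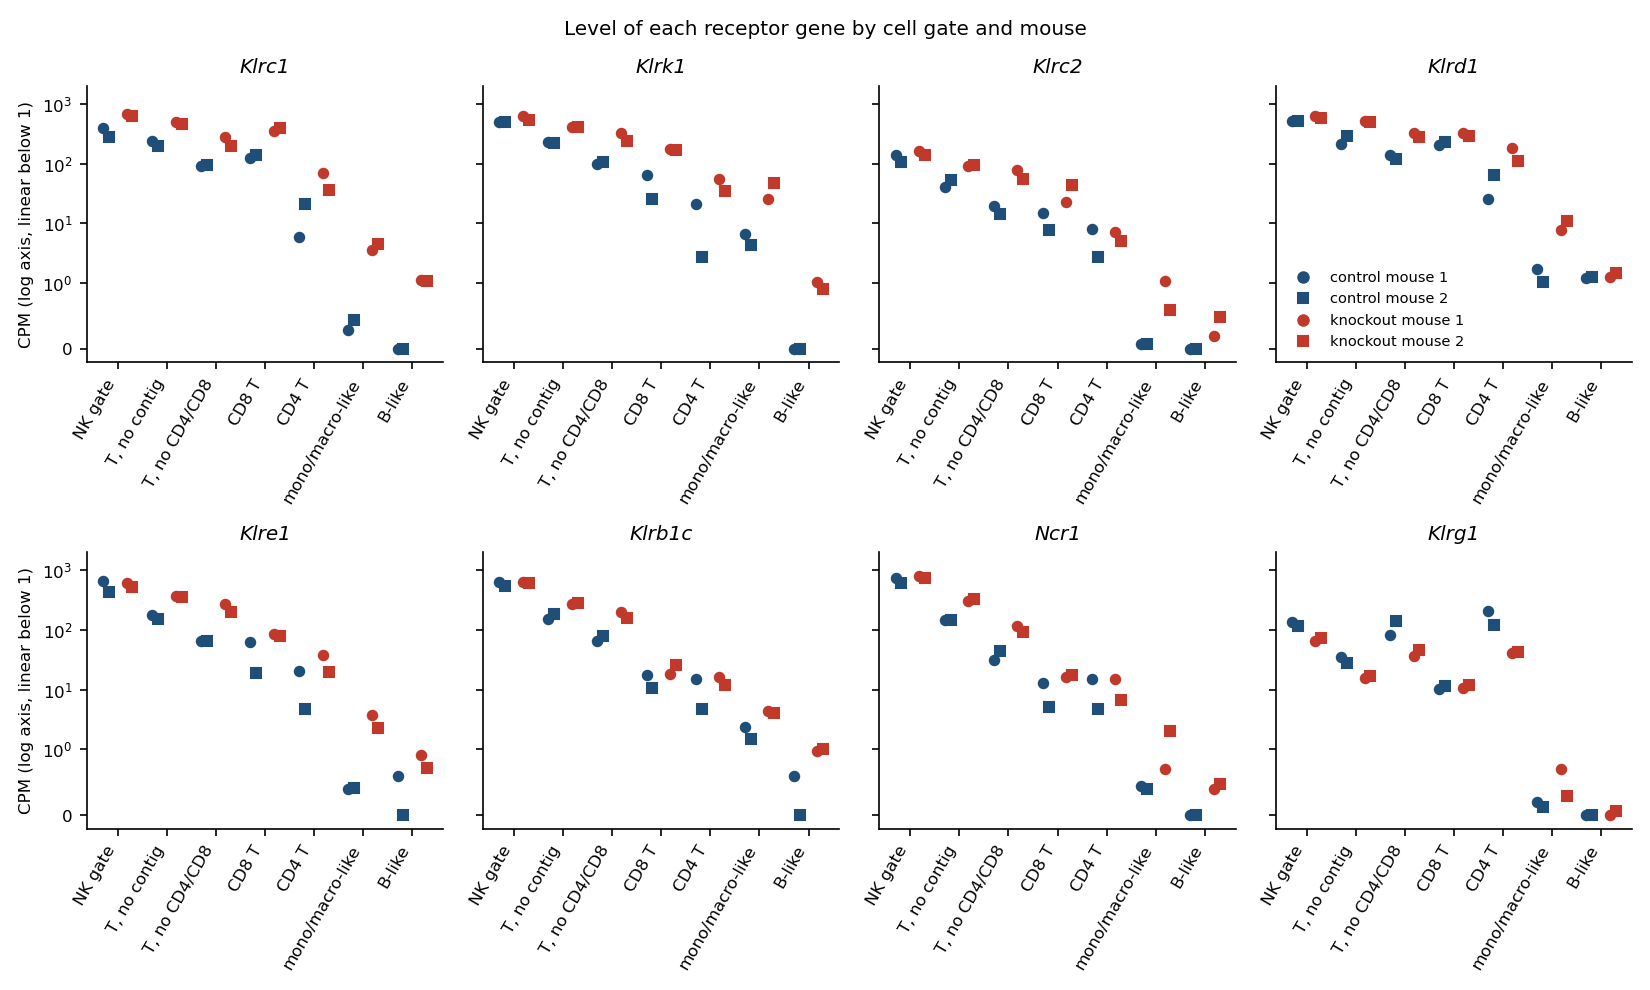
Level of each of the 8 receptor genes, in CPM on a log axis that is linear below 1, in 7 cell gates, with 1 point per mouse (circles mouse 1, squares mouse 2, red knockout, blue control). Ncr1 and Klrb1c drop most steeply from the NK gate to CD8 T cells, Klrc1 and Klrd1 least, and Klrg1 is about as high or higher in CD4 T cells of the control mice as in their NK gate.

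Klrk1, Klrc2, Klrb1c and Klre1 had the same order of gates in every mouse: the NK gate, T cells without a contig, T cells without CD4 or CD8, CD8 T cells and CD4 T cells. Ncr1 kept it in all but control mouse 1, where CD4 T cells (14.9 CPM) were above CD8 T cells (12.9). For Klrk1 the T cells without a contig were at 411, 405, 234 and 225 CPM, the T cells without CD4 or CD8 at 320, 238, 96.7 and 105, the CD8 T cells at 174, 168, 64.5 and 25.7 and the CD4 T cells at 54.1, 35.2, 20.8 and 2.71. Klrc1 broke this order, since CD8 T cells (356, 388, 122 and 138) were above T cells without CD4 or CD8 (279, 197, 89.8 and 93.5) in each mouse. Klrd1 broke it too, by little in the knockout mice: CD8 T cells were at 329 and 286 and T cells without CD4 or CD8 at 328 and 280. The control mice differed there, with 202 and 227 in CD8 T cells against 137 and 119. Klrg1 broke the order as well, being lowest in CD8 T cells among these gates in each mouse.

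T cells without a contig may hold gamma-delta T cells, cells whose receptor was not recovered and NK-like cells with CD3 UMIs. The cluster led by Gzmc, named NK-like from its markers, held 47.2, 57.0, 12.4 and 20.8% of them. The Klra4-led cluster, also named NK-like, held 6.11, 4.17, 9.41 and 6.64%. A UMI of Trdc, a gamma-delta receptor gene, was present in 23.6, 25.8, 36.6 and 21.7% of T cells without a contig. It was present in at most 1.72% of CD8 T cells and in 6.19, 7.47, 9.93 and 7.78% of the NK gate. The Ncr1 level of T cells without a contig was 310, 337, 146 and 147 CPM, against 117, 94.1, 31.2 and 44.2 in T cells with a contig but no CD4 or CD8. Invariant NKT cells, found by their TRAV11 and TRAJ18 receptor chain in 52, 88, 22 and 17 cells, had Klrk1 at 441, 266, 108 and 208 and Klrb1c at 318, 162, 63.2 and 284. In these cells Ncr1 was at 65.0 and 32.4 in the knockout mice and had no UMI in either control mouse, where 3 UMIs would correspond to 19.0 and 56.8 CPM.

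The receptors were found together in single cells. Cells of the NK gate carried UMIs of a median of 6, 6, 6 and 5 of the 8 genes, and 96.1, 96.8, 96.6 and 92.8% carried at least 3. At least 3 were found in 31.2, 40.6, 14.8 and 6.78% of CD8 T cells, in 43.5, 44.0, 16.5 and 13.0% of T cells without CD4 or CD8 and in 6.55, 7.94, 3.47 and 1.58% of CD4 T cells. Among CD8 T cells, Klrk1 was found in 55.3, 61.4, 36.1 and 13.7% of those with a Klrc1 UMI and in 16.0, 17.0, 8.29 and 3.68% of those without. In the knockout mice the cells with a Klrc1 UMI were the shallower ones, with median UMIs of 4395.5 and 4271 against 5623 and 5457.5.

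A small set of CD8 T cells carried an NK-like combination. The 62, 87, 28 and 17 CD8 T cells with a Klrb1c UMI had an Ncr1 UMI in 38.7, 39.1, 42.9 and 29.4% of cases, against 0.49, 1.24, 0.38 and 0% of CD8 T cells without one. Klre1 was found in 75.8, 75.9, 67.9 and 52.9% of them against 14.8, 15.4, 10.4 and 3.57%. Their median depth was 5511, 4620.0, 5983 and 5145 UMIs, against 4786, 4670.0, 4491 and 4038.5 in the others, and doublets had been removed only as called per library. In the NK gate the NKG2A and NKG2C genes tended apart in 3 mice: Klrc2 was found in 37.9, 43.9, 28.9 and 26.4% of cells with a Klrc1 UMI and in 54.7, 41.7, 53.0 and 41.9% of cells without.

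Over the 28 sums of 7 gates and 4 mice, the genes whose levels ran most like each receptor included other members and genes outside the 8. These correlations are descriptions, and the 28 points share libraries and gates. Ncr1 ran with Klrb1c (Pearson r = 0.991), Klrb1a (0.987) and Clnk (0.974). Klrc2 ran with Klre1 (0.991), Samd3 (0.971) and Ncr1 (0.970), and Klrc1 with its partner gene Klrd1 (0.985), Cd7 (0.981) and Samd3 (0.975). Klrd1 ran with Fasl (0.986), and Klrk1 with Il12rb2 (0.969), Klre1 (0.949) and Ifitm10 (0.943). Klrg1 stood apart, with r of at most 0.80 to any other member and with Mmd (0.957), Ptpn7 (0.957) and Tbc1d30 (0.947) nearest to it.

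In CD8 T cells the gene of the inhibitory chain NKG2A rose in the knockout mice. Klrc1 was at 356 and 388 CPM in the knockout mice and at 122 and 138 in the control mice, and the groups did not overlap. The log2 change was 1.58 (SE 0.14, edgeR adjusted p = 0.00603). A Klrc1 UMI was found in 52.0, 57.9, 24.0 and 32.6% of CD8 T cells, and after thinning to 1000 UMIs in 27.5, 33.6, 10.8 and 10.3%. Klrc1 was the only 1 of the 8 genes called in this comparison, where 1.34% of the 10952 genes tested were called, 63 up and 84 down. Its rise was already known from these data when the genes were grouped, so it is not independent evidence. Without knockout mouse 1 the Klrc1 change was 1.66 and without knockout mouse 2 it was 1.5, and the Klrc1 call was lost in both fits.

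Klrk1 in CD8 T cells was at 174, 168, 64.5 and 25.7 CPM, also without overlap, with a log2 change of 1.96 (SE 0.46) that did not pass (edgeR adjusted p = 0.150). In counts thinned per cell the change was 2.27 (edgeR adjusted p = 0.00174). Without control mouse 1 it was 2.83 and without control mouse 2 it was 1.39. Klrd1, the partner gene of Klrc1, was at 329, 286, 202 and 227 (log2 change 0.58, SE 0.14, adjusted p = 0.0923). Klrc2 was at 22.9, 43.9, 14.6 and 7.54 (1.64, SE 0.49, adjusted p = 0.200). Klre1, Ncr1, Klrb1c and Klrg1 did not pass either, with log2 changes of 1.03, 0.96, 0.69 and 0.11. With control mouse 2 as the only control, the changes were 0.54 for Klrd1, 2.23 for Klre1, 1.83 for Ncr1 and 1.16 for Klrb1c. Klrg1 was at 10.6, 11.8, 10.2 and 11.3. The median change of all genes tested was 0.013.

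The genotypes were also set side by side within the clusters of the gate. The cluster led by Cd8a held 59.5, 57.9, 27.0 and 61.3% of CD8 T cells and the cluster led by Dapl1 held 36.4, 32.6, 60.7 and 30.3%. Within the Cd8a-led cluster Klrc1 was at 626, 701, 300.1 and 173 CPM and Klrk1 at 282, 276, 61.8 and 17.9, so the genotypes did not overlap there either. Within the Dapl1-led cluster Klrc1 was at 63.9, 60.8, 45.2 and 63.7 and Klrk1 at 35.3, 31.0, 41.3 and 14.7, and the genotypes overlapped for both.

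Few partner genes passed the test in CD8 T cells. None of 21 adaptor and signalling genes was called (median log2 change 0.07), with Hcst at 829, 736, 477 and 596 CPM (0.54, SE 0.17, edgeR adjusted p = 0.156) and Tyrobp at 132, 192, 119 and 133 (0.36, SE 0.20, adjusted p = 0.401). None of 7 ligand genes was called, H2-T23 being at 290, 253, 192 and 179 (0.55, SE 0.14, adjusted p = 0.111). Of 17 other NK receptor genes Crtam fell (-1.12, SE 0.14), and of 13 cytotoxic genes Ifng rose (1.38, SE 0.19). Of 20 genes of transcription factors and cytokine receptors Tgfbr1, a TGF-beta receptor chain, rose (1.56, SE 0.16) and Tox, a factor of chronically stimulated T cells, fell (-0.83, SE 0.15). Tbx21, which encodes T-bet, did not pass (0.58, SE 0.14, adjusted p = 0.0933), nor did Eomes (-0.46, SE 0.62).

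CD8 T cells were then divided by clone size, which the choice of genes did not use. A clone shared the V and J segments and the CDR3 nucleotides of its TRB contig, and an expanded clone had at least 2 cells in the mouse. The 4 mice held 588, 581, 477 and 294 clones, and 61.0, 58.2, 21.6 and 57.7% of CD8 T cells were in expanded clones. The largest clones had 64, 34, 7 and 192 cells, so a single clone made up 31.7% of the CD8 T cells of control mouse 2.

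Over all CD8 T cells Klrc1 was higher in expanded clones in all 4 mice. It was at 613, 666, 238 and 175 CPM in expanded and at 89.4, 111, 89.0 and 81.6 in single clones. The log2 difference was 1.81 (SE 0.35, edgeR adjusted p = 0.0386 with mouse as a block). Within the Cd8a-led cluster this was not so in control mouse 1, with 295 in expanded and 306 in single clones. Ncr1 was lower in expanded clones, at 13.1, 14.7, 5.91 and 3.42 against 19.7, 21.0, 14.9 and 7.73 (-0.96, SE 0.21, adjusted p = 0.00707). These were 2 of 8 genes, beside 18.9% of the 9731 genes tested. In expanded clones of the control mice 3 UMIs would correspond to 4.44 and 1.71 CPM, so Ncr1 there rests on few UMIs. Within the Cd8a-led cluster Ncr1 was at 8.55, 9.45, 2.57 and 4.01 in expanded and at 28.5, 3.77, 0 and 0 in single clones. These cluster sums rest on few UMIs, with 46, 55, 62 and 57 cells in single clones, so no direction is read from them. Klrk1 was at 274, 266, 66.5 and 17.7 in expanded and at 70.2, 70.8, 63.9 and 37.8 in single clones, and the difference over mice did not pass (0.88, SE 0.63, adjusted p = 0.460). The Klrc1 call was lost without knockout mouse 1 (1.54, adjusted p = 0.107) and without knockout mouse 2 (1.58, 0.0798).

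Within expanded clones 4 of the 8 genes were called by genotype. Klrc1 rose by 1.72 on the log2 scale (SE 0.17, edgeR adjusted p = 0.000317) and Klrd1 by 0.98 (SE 0.14, adjusted p = 0.00231; 456, 411, 223 and 235 CPM). Klrb1c rose by 1.90 (SE 0.37, adjusted p = 0.00903) from low levels of 7.39 and 5.14 in the control mice to 19.0 and 23, and Ncr1 by 1.78 (SE 0.43, adjusted p = 0.0249). These 4 of 8 genes stand beside 10.6% of the 9870 genes tested. Klrk1 and Klrc2 had larger changes that did not pass, 2.99 (SE 0.61, adjusted p = 0.0808) and 2.53 (SE 0.63, adjusted p = 0.0742). Klrk1 was called in thinned counts (3.06, edgeR adjusted p = 2.08e-06) and by DESeq2 (2.76, adjusted p = 0.0211). Its change was 3.95 without control mouse 1 and 2.07 without control mouse 2. Klrc2 was called without knockout mouse 1 (3.02, adjusted p = 0.00473), without knockout mouse 2 (1.81, 0.0466), in thinned counts (2.34, 0.0154), by DESeq2 (2.50, 0.000667) and with the replicate block (2.66, 0.00294). Klre1 (1.96, edgeR adjusted p = 0.149) and Klrg1 (1.07, 0.131) did not pass. Without control mouse 1 their changes were 2.9 and 1.54. Without the largest clone of each mouse the Klrk1 change was 2.58 and was called (adjusted p = 0.0177), while Klrb1c (1.74, 0.065) and Ncr1 (1.99, 0.0579) were not. The Klrb1c and Ncr1 calls were also lost without knockout mouse 1 (adjusted p = 0.0566 and 0.147), knockout mouse 2 (0.11 and 0.194) or control mouse 2 (0.108 and 0.231), and the Klrd1 call without knockout mouse 1 (0.054). DESeq2 called neither Klrb1c (0.0682) nor Ncr1 (0.233).

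In single clones none of the 8 genes was called, where 1.46% of 9736 genes were, and 1278 genes had an unadjusted p under 0.05. Klrc1 changed there by 0.34 and Klrk1 by 0.52 (edgeR adjusted p = 0.383 and 0.350). The mice left out mattered here. Without control mouse 1 the changes were 1.09 for Klrk1, 1.43 for Klre1 and 1.58 for Ncr1. With all mice they were 0.52, 0.44 and 0.84. Without knockout mouse 2 Klrg1 changed by -2.86, against -1.10 with all mice. The term for the difference of the 2 genotype effects was called for Klrk1 (2.29, SE 0.24, edgeR adjusted p = 9.94e-05), Klrc1 (1.37, SE 0.15, adjusted p = 0.000148) and Klrd1 (1.06, SE 0.14, adjusted p = 0.00073). In that test 2.37% of 10571 genes were called. In thinned counts the term was not called for Klrk1 (1.83, adjusted p = 0.0701) or Klrd1 (0.98, 0.0521). The term was 1.90 for Klrc2 without knockout mouse 1, and 1.6 for Klre1 and 4.20 for Klrg1 without knockout mouse 2. With all mice it was 1.56, 1.23 and 2.32 for these genes and was not called.

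The clone classes differed in cluster as well, and within 1 cluster the term did not pass. Of the single-clone cells most were in the Dapl1-led cluster, and 46, 55, 62 and 57 were in the Cd8a-led cluster. In that cluster Klrk1 was at 244, 260.1, 58.5 and 17.1 CPM in single clones and at 285, 278, 64.2 and 18.0 in expanded clones, so the genotypes were separated in both clone classes. The genotype change of Klrk1 there was 2.75 in single clones (SE 0.36, edgeR adjusted p = 0.000126) and 3.22 in expanded clones (SE 0.46, adjusted p = 0.0138). Those fits called 207 genes and 2 of 4 members tested in single clones, and 877 genes and 4 of 8 members in expanded clones. Both fits were added after the data were seen. The term for the difference was 0.02 for Klrk1, 0.58 for Klrc1 and 0.54 for Klrd1, and no gene was called by it. Klrc1 in the Cd8a-led cluster was at 314, 528, 306 and 142 in single clones and at 650.3, 718, 295 and 178 in expanded ones.

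**Figure D2:**
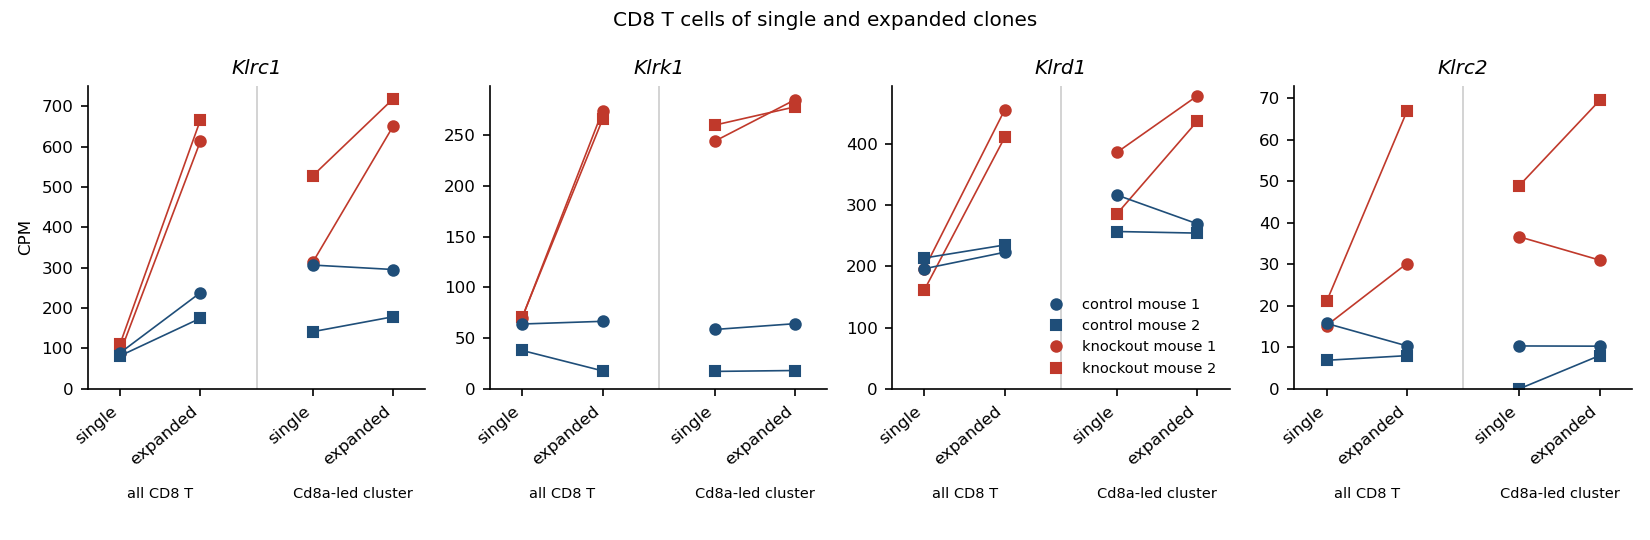
Levels of Klrc1, Klrk1, Klrd1 and Klrc2 in CPM in CD8 T cells of single and expanded clones, for all CD8 T cells (left in each panel) and for the Cd8a-led cluster alone (right), with a line for each mouse. Over all CD8 T cells the knockout mice (red) lie far above the control mice (blue) for Klrc1 and Klrk1 in expanded clones and near them in single clones, and within the Cd8a-led cluster Klrk1 is separated by genotype in both classes (244 and 260.1 against 58.5 and 17.1 in single clones).

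By the median clone, large clones of the knockout mice carried Klrc1 and Klrk1 in more of their cells than those of control mouse 2. Clones of at least 10 CD8 T cells numbered 28, 17, 0 and 4. A Klrc1 UMI was found in a median of 80.4% of a clone's cells in knockout mouse 1 (range 30.0 to 100%) and of 89.5% in knockout mouse 2 (70.0 to 100%), against 44.6% in control mouse 2 (38.5 to 58.3%). For Klrk1 the medians were 41.9% (7.14 to 100%), 58.3% (26.7 to 100%) and 6.97% (0 to 8.33%). The largest clone of knockout mouse 1, with TRBV13-3 and TRBJ2-1, carried Klrc1 in 84.4% and Klrk1 in 84.4% of its cells. Cells of a clone share their receptor and mouse and are not replicates, and control mouse 1 gave no clone of that size, so no test was made.

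**Figure D3:**
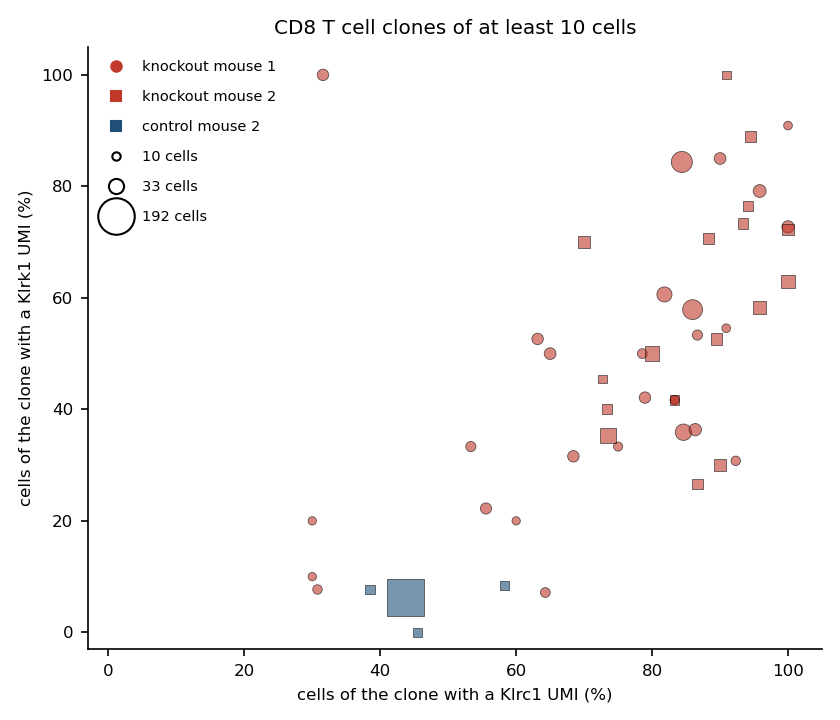
Each symbol is a CD8 T cell clone of at least 10 cells, with its share of cells (%) that had a Klrc1 UMI on the horizontal axis and a Klrk1 UMI on the vertical axis; symbol area follows clone size. The 4 clones of control mouse 2 lie at or below 8.33% for Klrk1, while those of the knockout mice range from 7.14 to 100%.

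In T cells with a contig but no CD4 or CD8 UMI 7 of the 8 genes rose and Klrg1 fell. All of Klrk1 (320, 238, 96.7 and 105 CPM), Klrc1 (279, 197, 89.8 and 93.5), Klrc2 (77.6, 55.0, 19.0 and 14.2), Klrd1 (328, 280, 137 and 119), Klrb1c (199, 160, 66.2 and 79.3), Klre1 (275, 199, 64.7 and 65.1) and Ncr1 (117, 94.1, 31.2 and 44.2) were higher in both knockout mice than in both control mice. The log2 changes of these 7 genes lay between 1.27 (Klrd1, SE 0.17) and 2.00 (Klrc2, SE 0.27), and all were called, with edgeR adjusted p between 0.000576 (Klre1) and 0.0031 (Ncr1). Klrg1 went the other way, at 37.0, 45.9, 81.4 and 142 (-1.37, SE 0.25, adjusted p = 0.0246). All 8 genes were thus called, beside 2.47% of 9101 genes tested, and all 8 remained called when any 1 mouse was left out.

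This gate mixes cell kinds whose shares differed by genotype. The cluster led by Gzmc, named NK-like from its markers, held 32.3, 28.2, 4.49 and 7.14% of the gate, and a Foxp3-led cluster 4.75, 7.38, 23.7 and 30.4%. Within the Foxp3-led cluster Klrg1 was at 402, 353, 337 and 407 CPM (20, 44, 79 and 115 cells). The genotypes overlapped there, and this was not tested. Within the Gzmc-led cluster Klrk1 was at 731, 566, 509.8 and 471 CPM (136, 168, 15 and 27 cells). Klrc1 (651, 431, 303 and 359), Klrb1c (458, 409, 271 and 291), Klre1 (714, 526, 398 and 369.9) and Ncr1 (337, 307, 127 and 190.5) were also higher there in both knockout mice, while Klrd1, Klrc2 and Klrg1 overlapped. Levels in the Gzmc-led cluster were not tested, and the share of all genes that separate the genotypes there is not given. With 2 mice per group an exact permutation test cannot give less than p = 0.333. In the Dapl1-led cluster both knockout mice were below both control mice for Klrk1 (116, 90.5, 133 and 133) and Klrc1 (71.3, 114, 138 and 154), opposite to the whole gate. In the Il17a-led cluster the knockout mice were higher: Klrk1 was at 165, 130, 24.4 and 0, and there Klrk1 (3.49, SE 0.57, edgeR adjusted p = 0.0211), Klrc1 (3.14, SE 0.36, adjusted p = 0.000629), Klrd1 (2.68, SE 0.34, adjusted p = 0.000846) and Klrb1c (2.4, SE 0.48, adjusted p = 0.0231) were called. That fit was added after the data were seen, and the number of all genes it called is given with the alternatives below. How much of the rise in the gate follows from its make-up was not tested.

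In the same gate 4 of 21 adaptor and signalling genes rose, among them Tyrobp (1.73, SE 0.17), the DAP12 adaptor, Fcer1g (1.14, SE 0.15) and Syk (2.23, SE 0.32), and none fell. Of 17 other NK receptor genes Cd160 (1.5, SE 0.16), Klrb1f (2.19, SE 0.32), Slamf7 (1.09, SE 0.18) and Itga1 (1.18, SE 0.23) rose (list median 0.74, beside -0.0011 for all genes tested). Tbx21 rose by 1.25 (SE 0.20), and the regulatory-type factor Ikzf2 fell (-1.44, SE 0.20). Eomes did not pass (-0.85, SE 0.45), nor did Hcst (0.58, SE 0.16, edgeR adjusted p = 0.0919) or H2-T23 (0.42, SE 0.17).

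In T cells without a contig 7 of the 8 genes rose, beside 2.1% of 9720 genes. The log2 changes were 1.13 for Klrc1 (501, 461, 238 and 199 CPM; SE 0.16, edgeR adjusted p = 0.00452), 1.13 for Klre1, 1.13 for Ncr1, 1.01 for Klrd1 (518, 504, 211 and 292), 0.98 for Klrc2, 0.82 for Klrk1 and 0.72 for Klrb1c, the last with an adjusted p of 0.0407. Klrg1 did not pass (-0.94, SE 0.28, adjusted p = 0.120). Without knockout mouse 2 the calls of Klrc2 (0.94, adjusted p = 0.0924) and Klrb1c (0.66, 0.211) were lost, as they were with DESeq2 (0.0991 and 0.0705). Without control mouse 2 the Klrg1 change was -1.12. The Gzmc-led cluster, named NK-like, held 47.2, 57.0, 12.4 and 20.8% of this gate, and how much of the rise follows from the make-up was not tested. Within that cluster Klrk1 (656, 607, 787 and 494) and Klrc1 (818, 642, 739 and 306) overlapped between genotypes. Klrd1 (766, 758, 632 and 553), Klrc2 (155, 155, 95.4 and 91.3), Klre1 (666, 576, 465 and 317) and Ncr1 (605, 563, 369.7 and 349) were higher there in both knockout mice, and Klrb1c was nearly tied in a pair of mice (518, 495, 334 and 494). These cluster levels rest on 278, 355, 25 and 47 cells and were not tested, and no share of all genes is set beside them. Tyrobp (1.18, SE 0.14) and Tbx21 (1.35, SE 0.19) rose in the whole gate too.

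In the NK gate the genes of the inhibitory receptors NKG2A and KLRG1 were called, and none of the other 6. Klrc1 was at 676, 622, 388 and 280.1 CPM and rose in the knockout mice by 0.90 on the log2 scale (SE 0.16, edgeR adjusted p = 0.0127). Klrg1 was at 65.0, 72.9, 134 and 117 and fell by 0.92 (SE 0.15, adjusted p = 0.0072). The other 6 genes had changes between 0.0050 (Klre1) and 0.22 (Klrc2) with adjusted p between 0.498 and 0.994, and Klrc2, Klrb1c and Klre1 overlapped between genotypes. So 2 of 8 genes were called, beside 4.41% of 9900 genes. Both calls were lost without knockout mouse 1 (Klrc1 0.87, adjusted p = 0.106; Klrg1 -0.82, 0.113) and without knockout mouse 2 (Klrc1 0.94, 0.0898; Klrg1 -1.03, 0.0513). The Klrc1 call was also lost in thinned counts (0.62, 0.0598).

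Both genes follow the NK subsets, which differed in share. Cells with a UMI of Cxcr6, a residency receptor used to mark ILC1-like cells, and none of Eomes or Itga2 made up 28.7, 26.5, 3.70 and 10.2% of the NK gate, and cells with Eomes or Itga2 and no Cxcr6 41.5, 37.9, 65.5 and 48.8%. In the first kind Klrc1 was at 1054, 967, 921 and 589 CPM and Klrg1 at 2.68, 16.1, 6.77 and 21.3, on 153, 156, 25 and 34 cells. In the second kind Klrc1 was at 382, 348, 329 and 215 and Klrg1 at 92.1, 111, 138 and 140, so the genotypes did not overlap for either gene, but neither passed there (Klrc1 0.40, edgeR adjusted p = 0.416; Klrg1 -0.46, 0.286). Without the Cxcr6-only cells the changes were 0.71 (adjusted p = 0.0758) and -0.57 (0.0832). In the Gzmc-led cluster of the gate, which held 49.0, 46.7, 9.48 and 24.3% of its cells, Klrc2 (1.21, SE 0.24, adjusted p = 0.00249) and Klrd1 (0.70, SE 0.16, adjusted p = 0.00815) rose and Klrc1 did not pass (0.59, 0.157). This fit too was added after the data were seen, and the number of all genes called in it is given below.

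**Figure D4:**
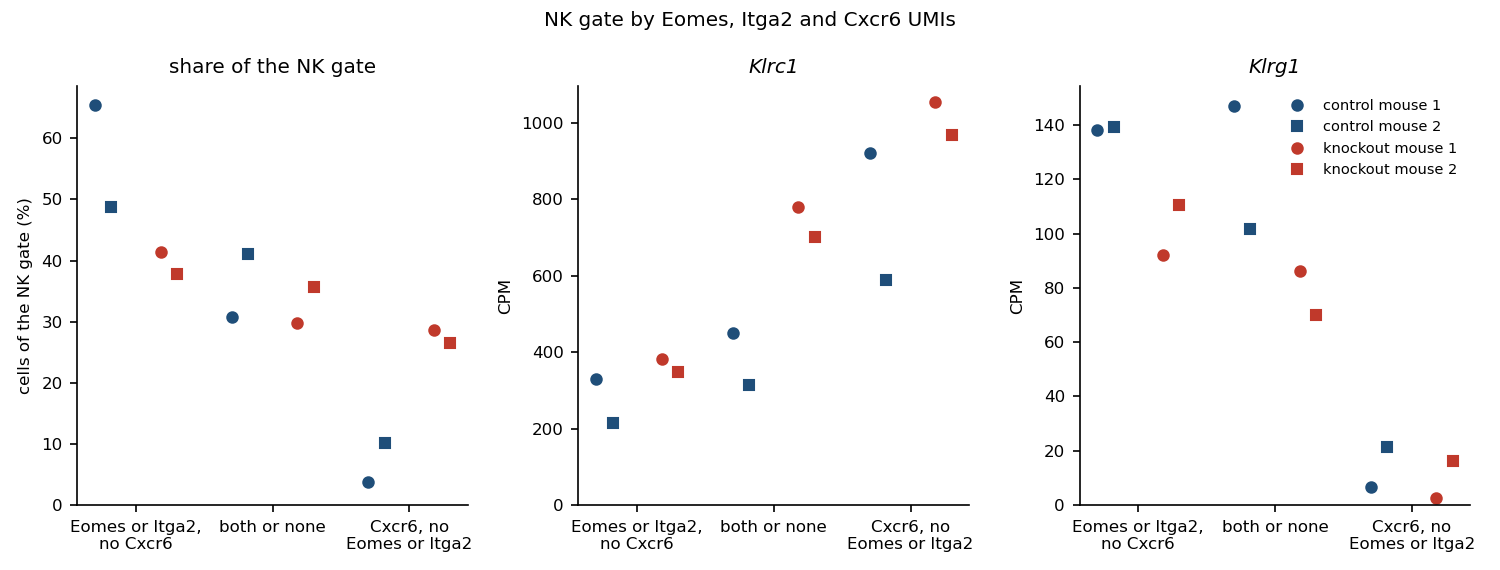
Share of the NK gate (%) and levels of Klrc1 and Klrg1 (CPM) in cells with Eomes or Itga2 and no Cxcr6, in cells with both or none, and in cells with Cxcr6 only, 1 point per mouse. The Cxcr6-only share is 28.7 and 26.5% in the knockout mice (red) against 3.70 and 10.2% in the control mice (blue), and those cells have the highest Klrc1 and the lowest Klrg1 levels in each mouse.

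Among the partner genes of the NK gate, H2-T23, which encodes the ligand of NKG2A and NKG2C, rose (356, 320, 180.0 and 170 CPM; 0.95, SE 0.13, edgeR adjusted p = 0.00261), 1 of 6 ligand genes. Of 18 other NK receptor genes 5 rose, among them Klrb1b (0.83, SE 0.13) and Klri1 (1.43, SE 0.27), a partner chain of the Klre1 product, and Tigit fell (-0.66, SE 0.16). Sh2d1a (-0.85, SE 0.14) and Zap70 (-0.65, SE 0.14) fell among 21 adaptor and signalling genes, while Hcst (0.47, SE 0.12, adjusted p = 0.0503) and Tyrobp (0.11, SE 0.13) did not pass. Tgfbr1 (1.49, SE 0.19), Zfp683 (3.87, SE 0.81) and Tbx21 (0.59, SE 0.14) rose, Eomes did not pass (-0.39, SE 0.21), and of 13 cytotoxic genes Gzmk fell (-4.08, SE 0.33).

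Whether the genotype effect differed between CD8 T cells and the NK gate was tested directly, and none of the 8 genes was called, beside 0.743% of 10771 genes. There 907 genes had an unadjusted p under 0.05. The term was 1.84 for Klrk1 (SE 0.50, edgeR adjusted p = 0.507), 0.66 for Klrc1 (adjusted p = 0.160) and 1.03 for Klrg1 (SE 0.23, adjusted p = 0.0586). For Klrk1 it was called in thinned counts (1.98, edgeR adjusted p = 2.98e-12), and DESeq2 called it too (1.92, adjusted p = 0.00867). The Klrk1 term was 2.64 without control mouse 1 and 1.27 without control mouse 2. In thinned counts the term was called for Klrc1 (0.97, edgeR adjusted p = 0.000892) and Klre1 (1.28, 0.000445). Without control mouse 1 it was 1.88 for Klre1 and 1.53 for Ncr1, and without knockout mouse 1 it was 1.92 for Klrc2.

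Klrg1 was the 1 gene of the 8 called in CD4 T cells, beside 0.407% of 9333 genes, and it fell. It was at 41.6, 43.5, 209 and 122 CPM, a log2 change of -1.91 (SE 0.28, edgeR adjusted p = 0.0272), and without knockout mouse 1 the call was lost (-1.86, adjusted p = 0.0968). Klrg1 in this gate was carried by cells with Foxp3, the factor of regulatory T cells: 327, 133, 448 and 281 in cells with a Foxp3 UMI and 2.85, 8.18, 29.4 and 45.3 in cells without. Cells with a Foxp3 UMI were 7.30, 14.0, 28.2 and 26.2% of CD4 T cells. Among Foxp3-positive cells the genotypes overlapped, and among cells without a Foxp3 UMI Klrg1 was still lower in the knockout mice (-2.75, adjusted p = 0.0473). Without the whole Foxp3-led cluster it did not pass (-1.41, adjusted p = 0.558).

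The other receptors in CD4 T cells were low and did not pass in the whole gate. The Cd8a-led cluster held 23.7% of this gate in control mouse 2, against 1.01 and 0.82% in the knockout mice and none in control mouse 1. What part those cells have in the levels of control mouse 2 was not tested. Klrd1 was at 184, 111, 25.8 and 63.8 CPM (1.72, edgeR adjusted p = 0.128), Klrc1 at 69.7, 36.4, 5.94 and 21.0 (1.91, 0.152) and Klrk1 at 54.1, 35.2, 20.8 and 2.71 (2.11, 0.254). Without control mouse 1 the changes were 4.08 for Klrk1 and 2.65 for Klre1. Without control mouse 2 they were 3.15 for Klrc1 and 2.53 for Klrd1, and without knockout mouse 2 Klrc1 changed by 2.31. In the Il17a-led cluster of this gate, 67.5, 55.3, 42.1 and 29.0% of its cells, Klrc1 was at 98.6, 77.3, 12.8 and 20.4 and Klrd1 at 277, 209, 54.6 and 58.2. Both were called there (2.38, SE 0.37, edgeR adjusted p = 0.015, and 2.10, SE 0.26, adjusted p = 0.0089). That fit called 54 genes in all and 2 of 4 members tested, and it was added after the data were seen. None of the partner genes was called in CD4 T cells.

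Klrk1 UMIs were also found in monocyte/macrophage-like cells. Klrk1 was at 25.5, 47.5, 6.52 and 4.29 CPM there and in 15.9, 24.3, 4.97 and 2.74% of cells. In B-like cells, which should lack it, Klrk1 was at 1.04, 0.90, 0 and 0, in 0.34, 0.28, 0 and 0% of cells, at median depths of 3066, 2876, 2207 and 2429.5 UMIs against 9489.5, 8168, 8921 and 7309.5. After thinning to 1000 UMIs the macrophage shares were 2.65, 3.94, 0.59 and 0.36%. The ratio of Klrk1 to Klrd1 UMIs was 3.37, 4.40, 3.79 and 4.17 in these cells, against 0.99, 0.94, 0.97 and 0.95 in the NK gate and 0.53, 0.59, 0.32 and 0.11 in CD8 T cells. In every other gate of each mouse it was at most 1.11. By cluster, Klrk1 was highest where Rsad2, an interferon-induced gene, led (61.6, 114, 49.1 and 27.4) and in the Arg1-led cluster (66.2, 80.4, 10.6 and 10.3).

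In these cells Klrk1 rose in the knockout mice by 2.66 (SE 0.39, edgeR adjusted p = 0.0171), and the call was lost without control mouse 1 (adjusted p = 0.166) or control mouse 2 (0.241). Klrc1 (3.50, 4.38, 0.29 and 0.43 CPM), Klrc2, Klrd1 (7.58, 10.8, 1.72 and 1.03) and Klre1 were called as well, 5 of 8 beside 17.4% of 14244 genes. The Klrc2 call (3.16) was lost when any 1 mouse was left out (adjusted p between 0.0682 and 0.165) and with doublets kept (1.81, 0.0554), and the Klre1 call without knockout mouse 1 (0.0597). With doublets kept the Klrc1 change was 1.95 in place of 3.33. Without control mouse 1 the Klrb1c change was 1.36, against 1.00 with all mice. Some genes of T and NK cells rose in the same fit, for example Lck (2.24, SE 0.24; 6.74, 8.01, 1.40 and 1.73 CPM), Il2rb (2.75, SE 0.26) and Tcf7 (2.76, SE 0.36). Of 22 adaptor and signalling genes 6 rose (list median 0.08), and of 19 genes of transcription factors and cytokine receptors 6 rose (0.49). Of 16 other NK receptor genes 7 rose and 1 fell (1.16), and of 11 cytotoxic genes 6 rose (1.66). T and NK-like cells were also a larger part of the knockout libraries, and the part of RNA from such cells in these changes was not tested. H2-T23, the ligand gene, was at 417, 360.3, 199 and 193 and rose by 0.99 (SE 0.12, adjusted p = 0.00401). In B-like cells only Klrd1 was high enough to be tested (1.24, 1.44, 1.20 and 1.22; 0.22, adjusted p = 0.934), where 0.13% of 11522 genes were called.

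**Figure D5:**
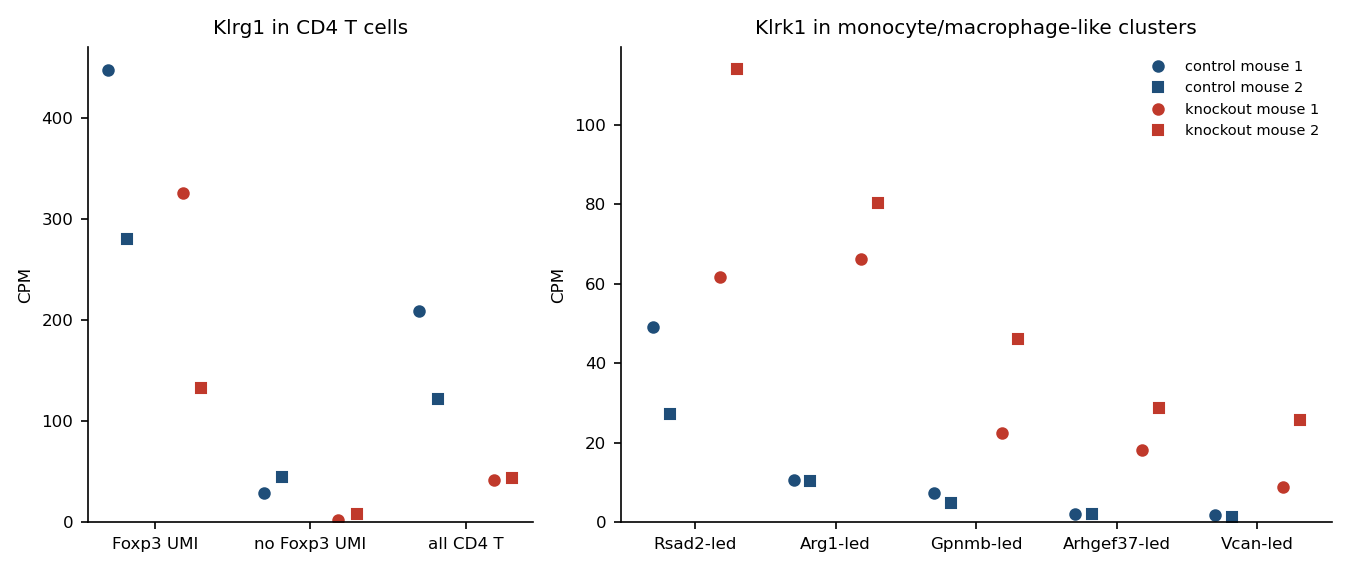
Left, Klrg1 in CPM in CD4 T cells with a Foxp3 UMI, without one, and in all; right, Klrk1 in CPM in the monocyte/macrophage-like clusters named by their leading gene; 1 point per mouse. Klrg1 lies between 133 and 448 in cells with Foxp3 and at or below 45.3 in cells without, and Klrk1 is higher in both knockout mice (red) than in both control mice (blue) in the clusters shown.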

How the data were processed

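Per the labels, 4 gene expression and 4 T cell receptor libraries (8 in all) came from 2 knockout and 2 control mice. The submitters' processing notes name Cell Ranger 8.0.1, GRCm39, Seurat 5.0.1 and R 4.4.1. The deposited matrices hold raw UMI counts per gene and barcode, and the deposited contig tables UMI and read counts per contig. The annotation release was not given in the sources used here, and gene positions are from GENCODE on GRCm39.

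Cells needed 200 or more genes and no more than 10% of UMIs from mitochondrial genes, doublets called by Scrublet per library (2.07 to 3.41%) were removed, and cells were clustered with scanpy 1.11.5 (2000 variable genes without the 8 members, 30 components, 20 neighbours, Leiden resolution 1). Clusters were named from marker lists. A T cell without a contig had at least 2 CD3 UMIs.

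UMI counts were summed per mouse and gate (at least 30 cells in every mouse) and tested with edgeR 4.0.16 (robust quasi-likelihood, filterByExpr, TMM, two-sided, Benjamini-Hochberg over all genes, threshold 0.05). Only the genotype fits of CD8 T cells and of the NK gate, the fit of their difference, and expanded against single clones were tried on simulated data. Printed levels are CPM of the summed cells, folds are edgeR log2 values, and shares of cells carry counting error (95% exact binomial intervals were computed) beside the spread over mice. Nothing says the 4 mice were processed together or apart, so batch and genotype cannot be told apart.

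The members, partner lists and tests were chosen with earlier results of these data known. Named were the 8 members, called partner genes (at most 6 per list by p), Hcst, Tyrobp, H2-T23, Eomes and Tbx21, and for each member its 3 nearest genes with a mean of at least 5 CPM. Alternatives covered doublets, cell filters, thinning to 1000 UMIs, resolution, gates, clone size, normalization, DESeq2 1.42.0, the block and leaving out each mouse. A narrower CD8 T cell gate is not reported here. The comparisons by genotype within a clone class, the clone class term, T cells without a contig and fits within clusters were added after the data were seen.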

Additional observations from a re-analysis of the deposited data

Results flagged for a closer look

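The genotype effect on 3 genes differed between expanded and single clones of CD8 T cells, by the term for that difference in edgeR with mouse as a block. It was larger in expanded clones by 2.29 on the log2 scale for Klrk1 (SE 0.24, adjusted p = 9.94e-05), by 1.37 for Klrc1 (SE 0.15, adjusted p = 0.000148) and by 1.06 for Klrd1 (SE 0.14, adjusted p = 0.00073). In counts thinned per cell it was not called for Klrk1 (1.83, adjusted p = 0.0701) or Klrd1 (0.98, 0.0521). For all 3 genes the term was not called within the Cd8a-led cluster, where it was 0.02, 0.58 and 0.54.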

How the results depend on the processing

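Members were refitted under each alternative run in which they passed the filter on low counts, and B-like cells have counts of genes only. Of 437 refits of the 33 calls, 374 kept the call, 63 lost it and 0 changed direction. Of 682 refits of members that were not called, 89 passed and 32 changed sign. All 8 genes were higher in the NK gate than in CD8 T cells in each mouse under the alternatives run for the levels. With 2 mice per group an exact permutation test cannot give less than p = 0.333, so the calls depend on a dispersion estimated across genes. The causes of the changes below were not tested.

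Counts are given as all genes called. With doublets kept they were 260 in CD8 T cells, 289 in CD4 T cells, 340 in T cells without CD4 or CD8, 741 in the NK gate, 360 in T cells without a contig, 53 for CD8 T cells against the NK gate and 7 in B-like cells. With no filter on low counts they were 1133, 644, 607, 1044, 480, 288 and 34 in the same order, and 1655 in expanded clones, 480 in single clones and 439 for the clone class term. With DESeq2 they were 260 in CD8 T cells, 114 in CD4 T cells, 182 in the NK gate, 114 in T cells without a contig, 27 for CD8 T cells against the NK gate, 1132 for expanded against single clones, 504 in expanded and 84 in single clones, 46 for the clone class term and 76 in B-like cells. In counts thinned per cell they were 105 in CD4 T cells, 136 in T cells without CD4 or CD8, 130 in the NK gate, 115 in T cells without a contig, 813 for expanded against single clones, 350 in expanded and 11 in single clones and 28 for the clone class term. With CD3 UMIs in place of the contig, CD4 T cells had 77.

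Members called changed as follows. With no filter they were 4 in CD8 T cells, 5 in CD4 T cells, 7 for CD8 T cells against the NK gate, 4 for expanded against single clones, 7 in expanded clones and 7 for the clone class term. With DESeq2 they were 2, 3, 1 and 1 in the first 4 of these. In thinned counts they were 3 in CD8 T cells, 3 of 4 tested in CD4 T cells, 1 in the NK gate, 3 for CD8 T cells against the NK gate and 1 of 6 tested for the clone class term, and Klrg1 in CD8 T cells (-0.44), Klrb1c in the NK gate (-0.058), Klrc1 (-0.013) and Klrd1 (0.17) in single clones changed sign. DESeq2 turned Klre1 to -0.14 for expanded against single clones.

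Subsets of the gates, most of them added after the data were seen, moved more. In the Cd8a-led cluster alone 1074 genes and 3 members were called in CD8 T cells, 2 of 4 members tested in single clones, and 0 genes and 0 of 5 members tested by the clone class term, with Klrd1 at 0.32 in single clones and Klrc2 at -0.66 and Klre1 at -0.13 for the term. Without the largest clone 616 genes were called in expanded clones and 4 members in expanded against single clones, with Klre1 at -0.072. Without the Foxp3-led cluster 0 members were called in CD4 T cells, and without Foxp3 cells Ncr1 was at -0.18. In the Il17a-led cluster 2 of 4 members tested were called in CD4 T cells, 49 genes and 4 members in T cells without CD4 or CD8, and 0 genes and 0 members in T cells without a contig.

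In the NK gate 661 genes were called with 1 CD3 UMI allowed, and with at least 3000 UMIs per cell 1 member, with Klre1 at -0.013. Cells with at least 3000 UMIs gave 111 genes in T cells without CD4 or CD8. NK cells with Eomes or Itga2 and no Cxcr6 gave 90 genes and 0 members (Klrd1 -0.17, Klrb1c -0.031). Without Cxcr6-only cells there were 155 genes and 0 members. The Klra4-led cluster gave 92 genes and 0 members (Klrk1 -0.016, Klrd1 -0.11, Ncr1 -0.046) and the Gzmc-led cluster 257 genes. Clusters at resolution 2 gave Klrb1c -0.037 and Klre1 -0.024.

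Leaving out each mouse in turn gave 11 to 1563 genes and 0 to 6 members in CD8 T cells, 75 to 576 and 0 to 3 in CD4 T cells, 107 to 983 and 0 to 2 in the NK gate, 27 to 280 and 0 to 3 for CD8 T cells against the NK gate, 1188 to 1619 and 1 to 3 for expanded against single clones, 216 to 1356 and 2 to 7 in expanded clones, 141 to 473 and 0 to 3 in single clones, and 462 to 3704 and 3 to 4 in monocyte/macrophage-like cells. The genes were 167 to 450 in T cells without CD4 or CD8, 152 to 903 in T cells without a contig and 55 to 1455 in B-like cells, and the members 3 to 5 for the clone class term. Signs changed for uncalled members: Klrc2 (-0.39 to 1.20), Klrb1c (-0.068 to 1.63) and Ncr1 (-0.46 to 1.24) in CD4 T cells, Klrb1c (-0.11 to 0.15), Klre1 (-0.27 to 0.37) and Ncr1 (-0.0030 to 0.31) in the NK gate, Klrg1 (-0.42 to 1.07) and Klre1 (-0.39 to 0.20) in expanded against single clones, and Klrd1 (-0.21 to 0.0702) and Klrb1c (-0.081 to 0.67) in single clones.

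Mice 1 and 2 of the genotypes share only a number in the labels. Deviations of same-numbered mice correlated at -0.0178 over 10952 genes in CD8 T cells and at 0.112 over 9900 genes in the NK gate. With the replicate number as a block, 46 genes were called in CD8 T cells, 315 in CD4 T cells, 750.0 in the NK gate, 572 in T cells without a contig, 251 in single clones and 163 in B-like cells. Cxcr6-only NK cells (25 in the smallest sample) and clones of at least 5 cells (29) were too few to be fitted.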

Other observations

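The Rsad2-led cluster of monocyte/macrophage-like cells held few cells (39, 89, 56 and 23 in knockout mouse 1, knockout mouse 2, control mouse 1 and control mouse 2, in that order), yet had the highest Klrk1 level of the 5 clusters in both control mice, at 49.1 and 27.4 CPM. In the Vcan-led cluster of the same mice Klrk1 was at 1.93 and 1.34. The knockout mice had 8.96 and 25.8 in the Vcan-led cluster. In the Arhgef37-led cluster Klrk1 was at 18.1, 28.7, 2.12 and 2.20. None of these cluster values was tested.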
